A study of Drosophila melanogaster with 2 samples.

Results

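Trans-homolog contacts join the maternal and the paternal copy of the same chromosome arm, whereas cis contacts lie within a single copy. Both were counted here on the large autosomal arms 2L, 2R, 3L and 3R of Drosophila melanogaster, using only Hi-C read pairs that were mapped with confidence. A pair was kept when the mapping quality of both ends was at least 30 and both ends lay on the same arm. Mapping quality is the aligner's score for how well the best position of a read stands out from all others, and in a diploid genome the closest rival is usually the same locus of the other homolog. By this rule 6176295 of 24390496 deposited pairs were kept in replicate 1 and 6077457 of 24659056 in replicate 2, or 25.3% and 24.6%. The choice of pairs rested on position and mapping quality and not on the contact frequencies that are compared below.

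The embryos were F1 hybrids from mothers of the inbred line DGRP-057 and fathers of the inbred line DGRP-439, collected at 2 to 4 h of age and used whole, many embryos to a sample. There were 2 biological replicates and no other genotype, treatment or age, so that conditions could not be compared and no p-value was computed. Values are given for each replicate and as mean ± SD (n = 2), and the intervals given are 95% Clopper-Pearson intervals, which cover counting error only. Whole embryos hold many nuclei of different kinds, and a higher contact frequency in each nucleus and a larger share of nuclei in contact cannot be told apart.

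In Drosophila the maternal and paternal homologs lie side by side in somatic nuclei, a state known as somatic homolog pairing that is established during early embryogenesis. Pairing allows the regulatory DNA of one homolog to act on the promoter of the other, a process called transvection. Hi-C ligates DNA ends that lie close together in the fixed nucleus and reads both ends, and in a hybrid the single nucleotide differences between the parental genomes tell the homologs apart. If an end is assigned to the wrong homolog, a cis pair is counted as a trans-homolog pair. Because cis pairs are much more frequent, a small rate of such errors could account for many apparent trans-homolog pairs.

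Among the kept pairs, 95074 of replicate 1 and 99763 of replicate 2 were trans-homolog. Pairs with separations below 1 kb made up 83.2% and 80.6% of the cis pairs but 5.94% and 5.35% of the trans-homolog pairs. Trans-homolog pairs were thus much more rarely short than cis pairs in both replicates. The short cis pairs include DNA fragments that were never ligated, which should be cis, so this contrast is not one of contacts alone. Between 1 kb and 10 Mb, 84084 of the 1098912 pairs of replicate 1 and 89073 of the 1241825 of replicate 2 were trans-homolog, a share of 7.65% and 7.17%. In that span the median separation of trans-homolog pairs was 189 kb in replicate 1 and 241 kb in replicate 2, against 28.6 kb and 28.4 kb for cis pairs. The trans-homolog pairs were spread toward longer separations, with 37.0% ± 1.58 of them at 1 to 10 Mb, where 12.9% ± 0.50 of the cis pairs lay.

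The rate of homolog misassignment was estimated anew in the kept pairs. Fragments that were never ligated give pairs whose reads face each other (inward pairs) at about the length of the sequenced fragments, and since both ends come from a single molecule such a pair should be cis. The probability of misassignment was taken as the geometric mean of inward trans-homolog over inward cis pairs, over the separation ranges inside 300 to 600 bp. Replicate 1 held 1877 inward trans-homolog pairs there and 2602709 inward cis pairs, and replicate 2 held 1842 and 2589666. The resulting probability was 0.0758% in replicate 1 and 0.0730% in replicate 2, with a mean of 0.0744% ± 0.0020. It was lower than in pairs of the same arms with a mapping quality below 30 at either end, at 0.311% and 0.309%, a difference far larger than the spread between replicates.

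Misassignment fell across the classes of mapping quality, though not at each step. When the lower quality of the pair was 1 to 19, it was 0.755% in replicate 1 and 0.758% in replicate 2. Just below the threshold, at 20 to 29, it was 0.174% and 0.170%, and just above it, at 30 to 39, it was 0.144% and 0.132%. The pairs on both sides of the threshold thus lay close to each other. At 40 to 49 the mean was 0.0678% ± 0.00065, at 50 to 59 it was 0.0834% ± 0.0048, and at 60, the highest quality, it was 0.0488% ± 0.0056. The class at 50 to 59 lay above that at 40 to 49 in both replicates, and the class at 60 was the lowest in both.

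**Figure D1:**
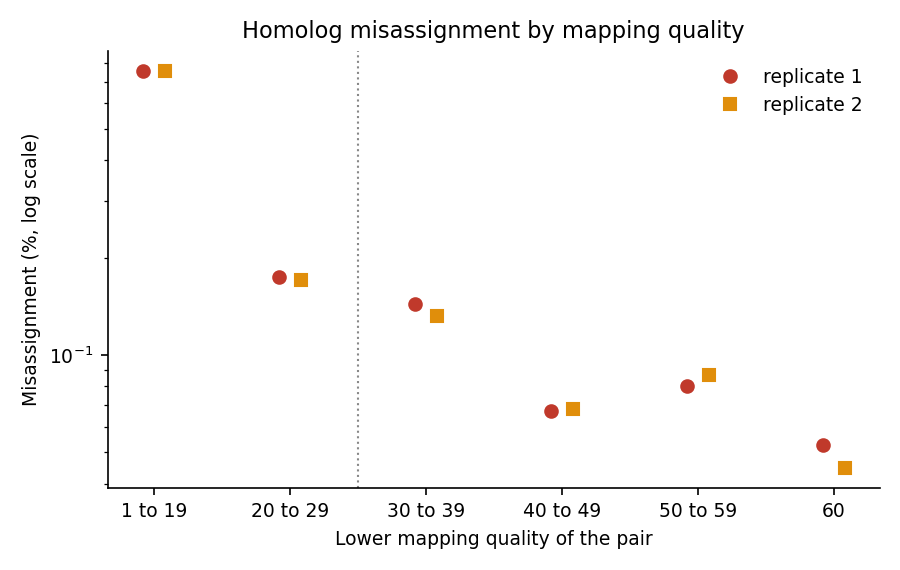
Probability of homolog misassignment (%, log scale) on the 4 autosomal arms by the lower mapping quality of the pair, with a point for each replicate and a dotted line at the threshold of 30. The values fall from 0.757% at qualities of 1 to 19 to 0.0488% at 60.

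The inward pairs at these short separations also include true contacts, so the estimate is an upper bound for the pairs at these separations. Its use beyond 1 kb assumes the same probability at every separation, which was not tested. Between 316 and 562 bp, trans-homolog pairs that faced outward numbered 191 in replicate 1 and 161 in replicate 2. Inward trans-homolog pairs exceeded them by 9.83 and 11.4 times, whereas inward cis pairs exceeded outward cis pairs by 183 times in both replicates. From counts summed over this span, the ratio of inward trans-homolog to inward cis pairs was 0.0721% in replicate 1 and 0.0711% in replicate 2. With the outward pairs subtracted as a measure of true contacts, this ratio was 0.0648% in replicate 1 and 0.0649% in replicate 2. Of the inward trans-homolog pairs, 18.1% and 15.9% had the highest quality at both ends, against 26.7% and 26.4% of the inward cis pairs. At 1 kb to 10 Mb these shares were 23.1% and 23.1% for trans-homolog pairs and 23.6% and 23.6% for cis pairs, so that trans-homolog and cis pairs beyond 1 kb were much closer in mapping quality than those at the length of unligated fragments. When the ends of an inward trans-homolog pair differed in quality, the maternal end was the lower in 46.3% and 45.2% of 1495 and 1505 pairs, and beyond 1 kb in 49.94% and 49.98%.

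The 4 arms differed in misassignment. On 2L it was 0.0918% in replicate 1 and 0.0896% in replicate 2, and on 2R it was 0.0857% and 0.0772%. On 3R it was 0.0732% and 0.0742%. The lowest value in both replicates was on 3L, at 0.0523% and 0.0510%, and 2L was the highest in both. In bins of 100 kb, 902 bins held at least 100 inward cis pairs over both replicates, and the 5% of them with the highest misassignment, 45 bins, held 38.1% of the inward trans-homolog pairs and 3.99% of the inward cis pairs. The bins were ranked by the same pairs, which include true contacts, so this share is a description only, and 242 bins held no inward trans-homolog pair. In the highest bin, chr2L:22500001-22600000 (dm3), near the centromeric end of the arm, 161 inward trans-homolog pairs stood against 1374 inward cis pairs, or 11.7%.

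The percentage of inward trans-homolog pairs expected to be misassigned was then computed for each separation range, as the misassignment probability times the inward cis pairs over the inward trans-homolog pairs. In the range from 1000 to 1334 bp it was 2.65% in replicate 1 and 3.38% in replicate 2, the highest of all 32 ranges from 1 kb to 10 Mb in both replicates. In the range that starts at 10 kb it was 1.53% and 1.56%, and in the range that starts at 1 Mb it was 0.615% and 0.649%. In the last range, from 7.50 to 10 Mb, it was 0.145% in both replicates. By this estimate, misassigned pairs were a small minority of the trans-homolog pairs at each separation, most frequent at the shortest. In pairs with a mapping quality below 30 the same share at 1 kb was 10.2% and 11.4%.

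**Figure D2:**
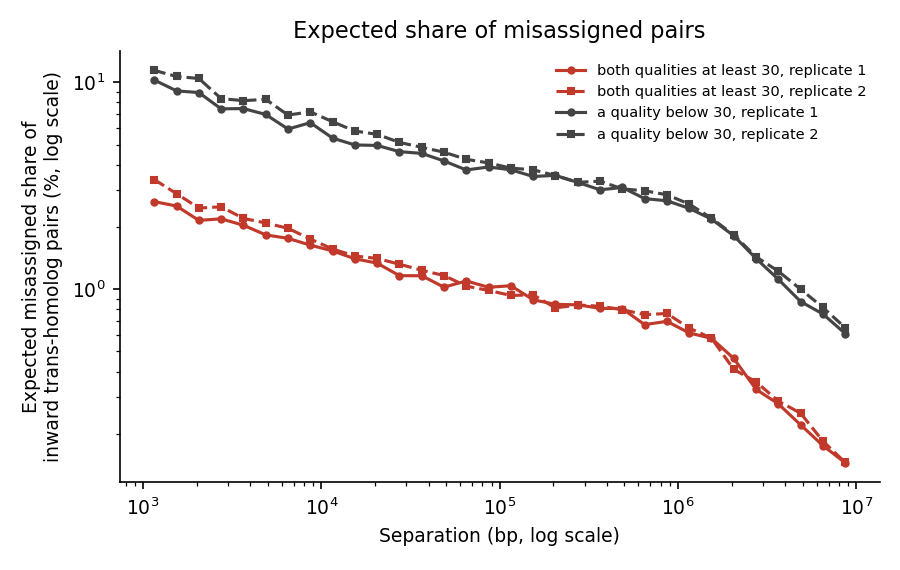
Percentage of inward trans-homolog pairs expected to be misassigned (log scale) against separation (bp, log scale) for pairs with both qualities at least 30 and for pairs with a quality below 30, by replicate. In the kept pairs the share falls from 3.02% ± 0.52 at 1 kb to 0.145% at 7.50 to 10 Mb and lies below that of the other pairs throughout.

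Contact frequency was compared as the number of pairs per pair of loci. As the number of locus pairs at a given separation is the same for both kinds of contact, the ratio of trans-homolog to cis counts is also the ratio of their frequencies. In the range at 1 kb there were 856 trans-homolog and 29006 cis pairs in replicate 1, a ratio of 2.95% (interval 2.75 to 3.16), and 717 and 30947 in replicate 2, a ratio of 2.32% (2.15 to 2.50). In the range that starts at 10 kb the ratio was 5.17% (4.97 to 5.38) and 4.56% (4.39 to 4.74). In the range that starts at 100 kb it was 7.61% and 7.66%. The ratio therefore rose with separation, and it did so at 30 of 31 steps between neighbouring ranges in replicate 1 and at 31 of 31 in replicate 2. In the range that starts at 1 Mb it was 12.2% and 11.2%, and in the last range it was 51.0% (49.1 to 52.9) and 46.8% (45.1 to 48.4), 17.3 and 20.2 times the ratio at 1 kb.

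Over whole orders of magnitude, the ratio was 3.94% in replicate 1 and 3.38% in replicate 2 at 1 to 10 kb, with a mean of 3.66% ± 0.40. At 10 to 100 kb it was 6.35% and 5.77%, with a mean of 6.06% ± 0.41. At 100 kb to 1 Mb it was 9.13% and 8.66%, with a mean of 8.90% ± 0.34. Each of these steps exceeded the spread between replicates. At 1 to 10 Mb the ratio was 23.8% and 22.3%, with a mean of 23.0% ± 1.04. These ratios lay far above the misassignment probability of 0.0744%, and subtracting the expected misassigned pairs gave 3.58% ± 0.40 at 1 to 10 kb and 23.0% ± 1.04 at 1 to 10 Mb.

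**Figure D3:**
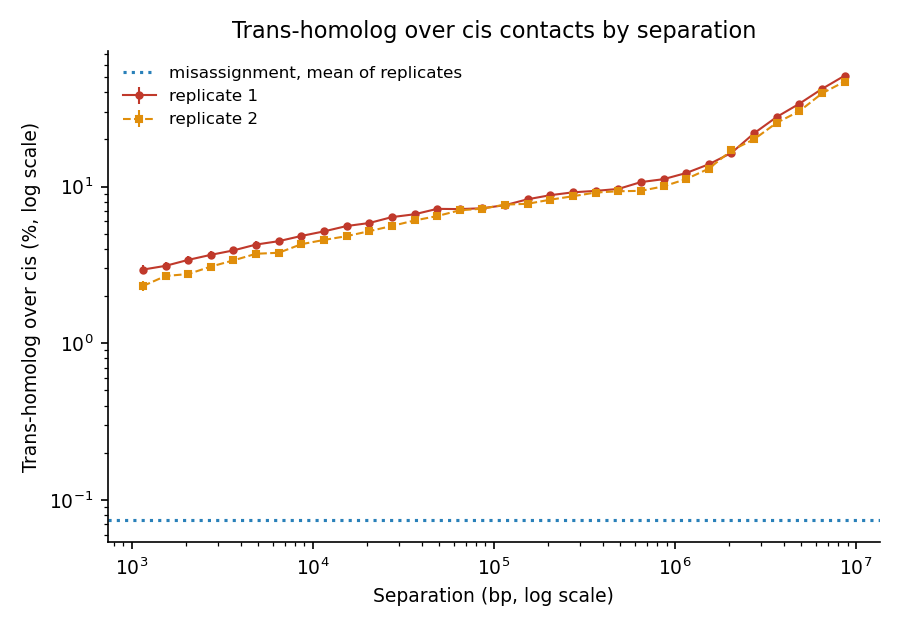
Trans-homolog over cis contacts (%, log scale) against separation (bp, log scale) on the 4 autosomal arms, with a point and a 95% Clopper-Pearson interval for each replicate and range, and the mean misassignment probability as a dotted line. The ratio climbs from 2.63% ± 0.45 at 1 kb to 48.9% ± 2.98 at 7.50 to 10 Mb, with a bend near 1 Mb.

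The replicates differed in this ratio by more than counting error. Replicate 2 was the lower in 30 of 32 ranges, and the intervals of the replicates were apart in 21 of them. All 8 ranges below 10 kb were among these, as were 6 of the 8 at 10 to 100 kb and 7 of the 16 beyond. The ratio of replicate 2 was 0.857 times that of replicate 1 at 1 to 10 kb, 0.908 times at 10 to 100 kb, 0.948 times at 100 kb to 1 Mb and 0.938 times at 1 to 10 Mb. The gap did not narrow steadily, as single ranges beyond 100 kb went down to 0.879 times, at 562 to 750 kb, and what set it was not tested. Replicate 2 also held more pairs that joined chromosome 2 to chromosome 3, 94251 against 78383. It held more kept pairs at 1 kb to 10 Mb as well, 1241825 against 1098912.

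Both kinds of contact declined with separation, and trans-homolog contacts declined more slowly. The slope of log10 contact frequency on log10 separation at 1 to 10 kb was -0.72 in replicate 1 and -0.68 in replicate 2 in cis, and -0.48 and -0.39 between homologs. At 10 to 100 kb the mean slope was -1.16 ± 0.031 in cis and -0.95 ± 0.015 between homologs. At 100 kb to 1 Mb it was -1.24 ± 0.049 and -1.08 ± 0.020. By the mean, the curves ran closest to parallel from 100 kb to 1 Mb, where the slopes differed by 0.15 ± 0.028, against 0.21 ± 0.046 at 10 to 100 kb. In replicate 1 these spans were nearly equal, at 0.175 and 0.177. The curves parted most at 1 to 10 Mb, where the slope was -1.25 ± 0.016 in cis and was -0.52 ± 0.003 between homologs. Over 10 kb to 1 Mb the slope difference was 0.17 in replicate 1 and 0.18 in replicate 2, and it was above 0 on each of the 4 arms in both replicates.

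A trans-homolog contact at 1 kb was as frequent as a cis contact at 58.3 kb in replicate 1 and at 72.2 kb in replicate 2. At 10 kb the matching cis separation was 137 kb and 140 kb, and at 100 kb it was 903 kb and 1038 kb. These values hold for loci at least 1 kb out of register, and contact at the same position of both homologs was not measured. From 1 kb to the span of 1 to 10 Mb, trans-homolog contact frequency dropped 590-fold in replicate 1 and 439-fold in replicate 2, with a mean fold of 515 ± 107. For cis contacts the same fold was 4754 and 4228, so the decline was steeper in cis.

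Pairs that joined an arm of chromosome 2 to an arm of chromosome 3, taken at the same mapping quality, gave the level for chromosomes that are not homologous (trans-heterolog contacts). At 1 kb, trans-homolog contacts were 1568 times as frequent as this level in replicate 1 and 1092 times in replicate 2. At 10 to 100 kb they were 152 ± 15.4 times and at 100 kb to 1 Mb 11.3 ± 1.14 times as frequent. The excess shrank to 2.57 ± 0.12 times at 1 to 10 Mb, where it ran from 2.08 ± 0.088 on 3R to 3.24 ± 0.12 on 2L. Counts were not normalized, and locus pairs were counted over whole arms. Some parts, such as chr3L:22000001-23000000, held no kept pairs at 10 to 100 kb in either replicate. How far this affects the folds was not tested. In the last range, from 7.50 to 10 Mb, the trans-homolog frequency was still 1.58 and 1.44 times the trans-heterolog level. In the range that starts at 1 Mb the same fold was 4.80 and 4.33 between homologs and 39.4 and 38.8 in cis, and in the last range cis contacts were at 3.11 and 3.09 times the trans-heterolog level. Both curves thus came near that level over this span, the trans-homolog curve from a lower start.

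**Figure D4:**
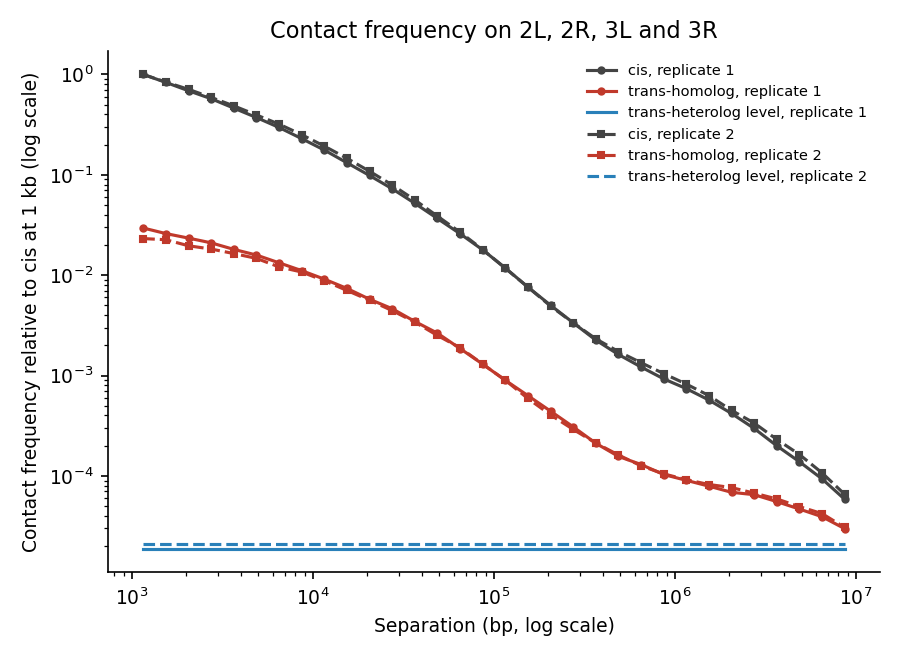
Contact frequency relative to cis at 1 kb (log scale) against separation (bp, log scale) for cis and trans-homolog pairs of the 4 autosomal arms, by replicate, with the level of contacts between chromosomes 2 and 3 as horizontal lines. Trans-homolog contacts lie below cis contacts and above the trans-heterolog level throughout, at 1.58 and 1.44 times that level in the last range.

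The rise of the ratio with separation was seen on each arm, and the arms differed in level. At 10 to 100 kb the ratio on 2L was 6.77% (6.60 to 6.93) in replicate 1 and 6.21% (6.07 to 6.36) in replicate 2. On 3R it was 6.54% and 5.88%, and on 2R it was 6.08% and 5.66%. On 3L it was 5.99% (5.83 to 6.14) and 5.31% (5.17 to 5.45). The order was 2L, 3R, 2R and 3L in both replicates, and each step down exceeded the spread of its difference over replicates, but for no neighbouring arms were the intervals apart in both replicates. The level on 2L was 1.13 times that on 3L in replicate 1 and 1.17 times in replicate 2, with the intervals apart in both.

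At 1 to 10 kb, 2L and 3R had mean ratios of 3.88% ± 0.49 and 3.79% ± 0.39, which did not differ beyond their spread, and 2R and 3L had 3.50% ± 0.27 and 3.45% ± 0.43, which did not either. At 100 kb to 1 Mb the mean was 9.58% ± 0.33 on 2L, 8.99% ± 0.53 on 3R, 8.80% ± 0.29 on 2R and 8.16% ± 0.21 on 3L. There 2L lay above and 3L below the other arms in both replicates, and 3R and 2R did not differ beyond their spread. At 1 to 10 Mb the order was 2L, 2R, 3R and 3L, with means of 24.0% ± 0.86, 23.5% ± 0.97, 23.0% ± 0.91 and 21.8% ± 1.40. Across the 32 ranges, 2L had the highest ratio of the arms in 21 in each replicate, and 3L had the lowest in 21 in replicate 1 and 27 in replicate 2. Misassignment moved with the ratio at these extremes, since it was also highest on 2L and lowest on 3L. Of the 636 and 630 inward trans-homolog pairs behind the value of 2L, the single bin chr2L:22500001-22600000 held 161 over both replicates. Whether 2L stays the highest without that bin was not tested. The arm 2L exceeded 3L by 0.0395 and 0.0386 percentage points in misassignment and by 0.780 and 0.904 percentage points in the ratio at 10 to 100 kb.

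**Figure D5:**
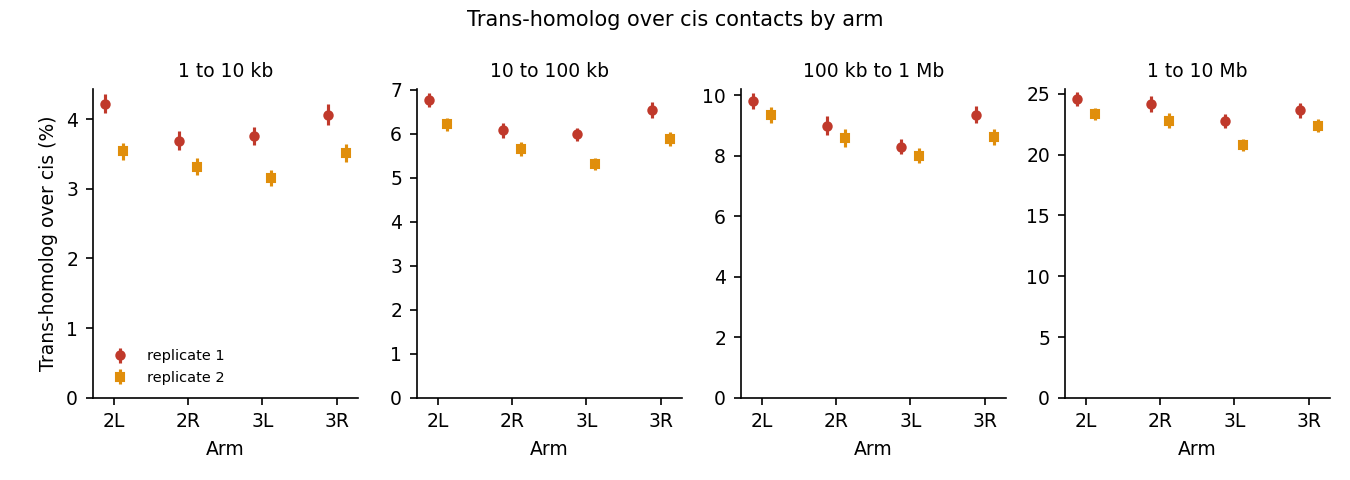
Trans-homolog over cis contacts (%) on each autosomal arm in 4 spans of separation, with a point and a 95% Clopper-Pearson interval for each replicate; the axes start at 0 and differ in scale. At 10 to 100 kb the points of 2L, 6.77% and 6.21%, lie above those of 3L, 5.99% and 5.31%.

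Along the arms, the ratio at 10 to 100 kb was taken in bins of 1 Mb, of which 82 of 99 held at least 1000 cis pairs in each replicate. The median over these bins was 5.68%, and the bins ran from 4.51% to 9.74%. Over the 82 bins, replicate 1 and replicate 2 were correlated with Pearson's r = 0.88 and Spearman's rho = 0.80, which is a description only, since the bins of both replicates share their mappability. The 3 highest of these bins were chr3R:27000001-27905053, at 10.2% in replicate 1 and 9.25% in replicate 2, chr3R:26000001-27000000, at 10.0% and 9.14%, and chr2L:19000001-20000000, at 8.29% and 9.32% (all dm3). The first of these bins ends at the telomeric end of the arm and adjoins the next, and the third lay 3.51 Mb from the centromeric end of 2L. The 3 lowest of them were chr3R:18000001-19000000, at 4.99% and 4.03%, chr3L:13000001-14000000, at 4.63% and 4.58%, and chr3R:15000001-16000000, at 5.20% and 4.00%. These bins were chosen by the values given, so their distance from each other is a description. Among the 82 bins, 3R held both the highest and the lowest, and the highest was 2.16 times the lowest. Bins with fewer cis pairs went beyond this range, such as chr2R:21000001-21146708 at the telomeric end of 2R, with 13.7% (11.1 to 16.7) of 817 cis pairs in replicate 1 and 13.5% (11.2 to 16.1) of 1036 in replicate 2. Below the range lay chr2R:1-1000000 at the centromeric end, with 1.52% (0.41 to 3.94) of 263 cis pairs in replicate 1. In replicate 2 this bin had 1.26% (0.34 to 3.25) of 318.

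Other features of the trans-homolog pairs were not used to choose them. An even split would place the maternal end at the lower coordinate in 50% of pairs. It lay there in 49.8% (49.4 to 50.1) of pairs at 1 kb to 10 Mb in replicate 1 and in 49.9% (49.5 to 50.2) in replicate 2. Of 16 combinations of arm and span of separation, the interval was off 50% in 1 in each replicate, and it was the same one. On 2L at 1 to 10 Mb the share was 48.3% (47.2 to 49.3) in replicate 1 and 48.4% (47.4 to 49.4) in replicate 2.

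The orientation of the reads became balanced beyond the length of the fragments. In the range at 1 kb of replicate 1 there were 214 inward, 226 outward and 416 same-strand trans-homolog pairs, and the most frequent of the 4 orientations exceeded the least frequent by at most 1.26 times in any range from 1 kb to 10 Mb in replicate 1 and 1.29 times in replicate 2. Same-strand pairs cover 2 of the 4 orientations and were in excess at the length of unligated fragments, with 39092 same-strand cis pairs at 316 to 422 bp against 6791 outward ones in replicate 1. In the range at 1 kb there were 13570 against 7959. Same-strand pairs alone gave a ratio of 3.73% ± 0.39 at 1 to 10 kb and 6.06% ± 0.42 at 10 to 100 kb. Pairs in which a read was split between alignments made up 28.8% and 26.2% of the kept pairs at 1 kb to 10 Mb. A split read does not show that ligation took place, since the split class also held 296114 and 308609 inward cis pairs at the length of unligated fragments. Misassignment in it was 0.118% and 0.104%, above the 0.0705% and 0.0690% of pairs whose reads aligned whole. In the split class the ratio was 3.86% in replicate 1 and 3.37% in replicate 2 at 1 to 10 kb, against 3.97% and 3.38% in pairs whose reads aligned whole. The values at 10 to 100 kb were 6.21% and 5.66% against 6.41% and 5.81%, and at 1 to 10 Mb 23.9% and 22.1% against 23.7% and 22.3%. The difference in the ratio between these kinds of pair was smaller than the spread between replicates at each span. Both kinds come from the same replicates, however, so that spread does not measure their difference. At each span below 1 Mb the split class was the lower in both replicates. At 1 to 10 Mb it was the higher in replicate 1 and the lower in replicate 2.

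Compared with the pairs of the same arms that had a mapping quality below 30 at either end, the kept pairs gave a lower ratio. The other pairs had, at 10 to 100 kb, 6.83% in replicate 1 and 6.14% in replicate 2, so that the ratio in kept pairs was 0.935 ± 0.0072 times as high. At 1 to 10 kb it was 0.919 ± 0.0074 times as high, and at 1 to 10 Mb 0.979 ± 0.0014 times. The ratio was lower in the kept pairs at all 4 spans in both replicates. With the misassignment probability of each set subtracted, the kept pairs came to 0.977 ± 0.0016 times the others at 1 to 10 kb and 0.970 ± 0.010 times at 10 to 100 kb. A part of the difference thus remained over the 4 arms together. By arm, the value at 1 to 10 kb was 0.953 ± 0.043 on 2R and 0.956 ± 0.00067 on 3L. It was 0.988 ± 0.049 on 2L and 1.009 ± 0.0052 on 3R. At 10 to 100 kb the kept pairs were lower on each arm in both replicates. The kept share of pairs also differed between the arms, from 26.2% ± 0.36 on 3R to 30.4% ± 0.38 on 2L.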

How the data were processed

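The deposited Hi-C pairs give the position and strand of both ends and, for each end, a mapping quality, which is a score from 1 to 60. The authors cut chromatin with DpnII, aligned reads with bwa mem 0.7.15 to a diploid F1 genome built on dm3, merged 3 sequencing runs per replicate and removed duplicates (pairsamtools 0.0.1-dev, pairtools 0.2.0, per the file headers). Replicates were not pooled, apart from the bins of 100 kb and the total for chromosome 4, and the counts were not normalized. The pairs and the comparisons were chosen with earlier results of these data known.

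Pairs were counted by arm, homolog, orientation and separation, in 8 ranges per order of magnitude. Locus pairs were counted from the arm lengths. The named items are the 4 arms, the separation ranges, the classes of mapping quality, and the 3 highest and 3 lowest bins of 1 Mb. The calculations were tested on simulated data. Alternatives changed the mapping quality, the arms, the orientation, the handling of misassigned pairs and the replicates. X and chromosome 4 were left out of the main values. The number of SNVs per read and gene annotation were not used here. Python 3.11.15, numpy 2.4.6, scipy 1.17.1, pandas 2.3.3 and matplotlib 3.10.9 were used.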

Additional observations from a re-analysis of the deposited data

Results flagged for a closer look

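X and chromosome 4 lie outside the main measurement and also held trans-homolog pairs. On X, at a mapping quality of at least 30, the misassignment probability was 0.474% ± 0.012 (SD, n = 2), and trans-homolog over cis at 10 to 100 kb was 6.21% ± 0.072. The misassignment on X was above that of each autosomal arm in both replicates. The labels do not give the sex of the embryos, and males carry a single X. Paternal cis pairs at 10 to 100 kb were 0.479 ± 0.024 times the maternal ones on X, against 0.961 ± 0.0063 times on the 4 arms. The paper took the paternal X from homozygous variants of DGRP-439, whereas autosomal variants were phased in a hybrid cell line. The part of either in the X values was not tested, so these are not directly comparable with the autosomal values. Chromosome 4 held 69 trans-homolog pairs of any mapping quality over both replicates, of which 8 in replicate 1 and 6 in replicate 2 had both qualities of at least 30.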

How the results depend on the processing

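With all deposited pairs of the 4 arms, at a mapping quality of at least 1, misassignment was 0.243%, its expected share at 1 kb 8.81%, the ratio at 100 kb to 1 Mb 9.32% and the share of pairs with the maternal end upstream 49.9%. At a quality of 60 the misassignment was 0.0488%, the expected share 2.07% and the maternal upstream share 49.9%. Misassignment was 0.0693% without the centromere-proximal 2 Mb, 0.0714% from pooled counts at 300 to 600 bp, and 0.0483% without the 5% of 100 kb bins where it was highest, which also took the expected share to 1.99%. Same-strand pairs gave a maternal upstream share of 49.6%. The cause of these moves was not tested, other than what each setting leaves out. Pairs with a split read, an alternative chosen after seeing the data, gave a misassignment of 0.111% and an expected share of 5.50%. The other values moved by less than 1 SD, the spread between replicates. With 2 replicates, leaving 1 out always moves the mean by less than that, so those settings could not show a move. A smaller move can still be shared by both replicates. At a quality of at least 1 the ratio at 1 to 10 kb was 4.18% and 3.62%, against 3.94% and 3.38% in the kept pairs. No paired analysis was possible because there was 1 group of samples, and arms and kinds of pair were compared within each replicate. The shortest range held 856 and 717 trans-homolog pairs, and 2 replicates limit every SD.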
